A study of Mus musculus with 8 samples.

Results

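The ADAM and ADAMTS genes encode zinc-dependent proteases of the cell surface and the extracellular matrix, and their mRNA was followed in stromal cells of mouse muscle through injury and repair. Members were the rows of the expression table whose symbol is Adam, Adamts or Adamtsl followed by a digit, which gave 57 of the 23350 genes in the table: 33 ADAM, 19 ADAMTS and 5 ADAMTS-like genes. Of these, 34 reached 1 FPKM in at least 1 library (13 ADAM, 16 ADAMTS and 5 ADAMTS-like) and 24 reached 5 FPKM. FPKM is the number of sequenced fragments per kilobase of transcript and per M (mega) mapped fragments, so levels of different genes can be set side by side.

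The cells were tdTomato-positive mesenchymal progenitors, purified by flow cytometry from the whole hindlimb muscle of C57BL/6J mice of the genotype Hic1CreERT2/CreERT2;Rosa26LSLtdTomato/+. Mesenchymal progenitors are the fibroblast-like cells between muscle fibres, and tdTomato marks those cells, and their progeny, in which the Hic1 locus drove Cre when tamoxifen was present. Every library shares that genotype and the same treatment, in which mice aged 8 weeks received 2.5 mg of tamoxifen on each of 5 days, followed by a washout of 10 days. The 8 libraries are 1 of quiescent cells and 1 each at days 1, 2, 3, 4, 5, 7 and 10 after notexin, a snake venom phospholipase that injures muscle fibres; whether a library pools several mice is not given in the sources used here.

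ADAM proteins are anchored in the membrane, and the catalytically active ones release the outer parts of growth factors, cytokine receptors and adhesion molecules, a process called shedding. ADAMTS proteins are secreted. Different ones cut large proteoglycans such as versican and aggrecan, remove the N-terminal propeptide of procollagens, or act on cartilage oligomeric matrix protein (COMP) and on fibrillin microfibrils. ADAMTS-like proteins have the ancillary domains of the ADAMTS family but no protease domain, and several of them bind fibrillin.

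With 1 library per time point no difference can be set against the spread between animals, so no p-value is given and what follows describes these 8 libraries. Estimated depth ran from 10.7 to 28.55 M (mega) fragments. All 9 mesenchymal markers were expressed, and their summed FPKM was 10202 at rest, 6225 at day 1 and 18503 at day 7. Most of the day 7 sum came from the matrix genes Dcn, Col1a1 and Col3a1 (4759, 4612 and 6168 FPKM). Whether the sum follows the share of these cells was not tested. Pdgfra, a surface receptor of these cells, lay between 77.0 and 153 FPKM. Hic1, whose locus drove Cre, was 52.2 FPKM at rest and 20.6 at day 1. Markers of other cells were also present and changed with time. The summed FPKM of 14 macrophage markers was 34.8 at rest and reached 914 and 516 at days 3 and 5. One of them, Ptprc, the general leukocyte marker, was 0.156 FPKM at rest, 2.31 at day 3 and 1.71 at day 5. Of 7 satellite cell and myoblast markers, Pax7 was at or below 0.178 FPKM, while Myod1 was 0.0311 at rest and 5.11 at day 3, Myog reached 4.19 at day 5 and Des 36.0 at day 3. Of 8 endothelial markers, Tie1, Emcn and Vwf were under 1 FPKM in every library, and the other 5 reached 1.17 (Kdr) to 7.24 FPKM (Esam).

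A member was compared between libraries when it had at least 5 FPKM in the higher of them, and it was called higher or lower when log2(FPKM + 1) differed by 1 or more, that is 2-fold on that scale; calls and "within 2-fold" refer to it throughout, while ratios and folds with a value are plain ratios of FPKM. At day 1, 11 of the 21 members compared were lower than in the quiescent library, where 12.5% of all genes compared were lower, and 1 of 21 was higher, where 22.4% of all genes were. Day 2 had 9 of 22 members lower (10.9% of all genes) and 2 of 22 higher (23.7%). Day 3 had 9 of 22 lower (8.28%) and 3 of 22 higher (15.6%). In percentage points, though not as a ratio, the family's share of lower genes stood farthest above that of all genes in these first 3 days.

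**Figure D1:**
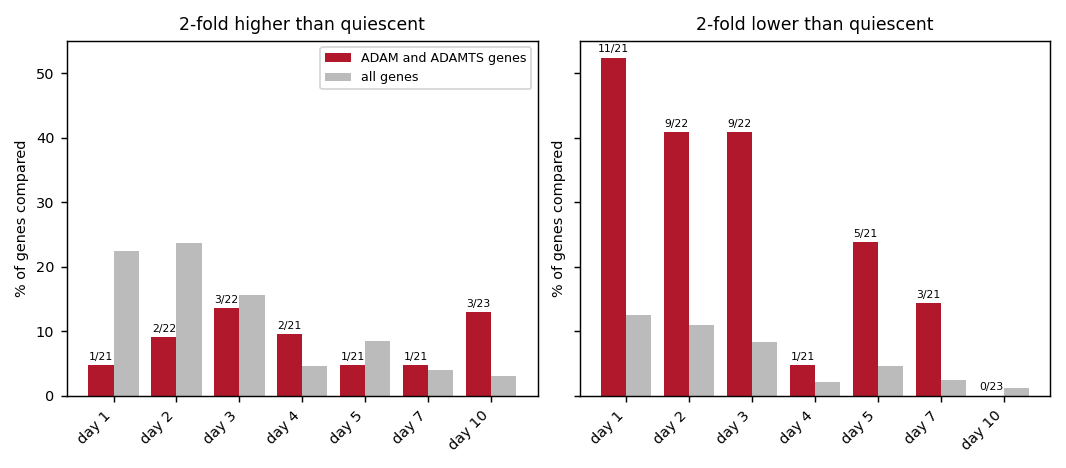
Percentage of genes compared (vertical axis) that were at least 2-fold higher (left) or lower (right) than in the quiescent library at each day, for ADAM and ADAMTS genes (red, with counts) and all genes (grey). The red bars stand above the grey ones on the lower side at days 1 to 7, and below them on the higher side at days 1, 2, 3 and 5.

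The later libraries were closer to the quiescent one. At day 4, 1 of 21 members was lower (2.15% of all genes) and 2 of 21 were higher (4.54%). Day 5 had 5 of 21 lower (4.63%) and 1 of 21 higher (8.39%), and day 7 had 3 of 21 lower (2.34%) and 1 of 21 higher (3.94%). At day 10, 0 of 23 members were lower (1.12%) and 3 of 23 were higher (3.01%). Each of the 12 members called lower on at least 1 of the first 3 days had a day 10 value within 2-fold of the quiescent one on the log2(FPKM + 1) scale, although the plain ratio of Adamts16 was 2.07-fold lower. On the log2(FPKM + 1) scale the 34 expressed members had median differences of -0.52, -0.41 and 0.12 at days 1, 2 and 10, beside 0.06, 0.11 and 0.08 over 12898 genes. The medians at days 1 and 2 were -0.91 and -0.67 with a pseudocount of 0.1 and -0.91 and -0.98 after rescaling to a common sum, and the day 10 median was -0.01 over members at 5 FPKM or more.

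Scaling bears on these counts. When the libraries were rescaled to a common sum of FPKM, the median of all genes moved by -0.40, -0.49, -0.35 and -0.31 at days 1, 2, 3 and 5. The split of higher and lower members then became 1 and 14 at each of days 1 and 2, and 2 and 3 at day 4. Under median-ratio scaling it was 2 and 2 at day 4 and 3 and 1 at day 10. The share of all genes called after either rescaling is not given here, so these counts have no background beside them. In a bulk library, fewer cells of a type and less RNA per cell cannot be told apart, which holds for every value here.

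The summed FPKM of all members was 821.5 at rest and 483.4, 465.6, 558.5, 752.8, 617, 723.4 and 737.3 at days 1, 2, 3, 4, 5, 7 and 10. The most abundant member was Adamts5 in the quiescent library, Adamts1 at day 1 and Adamts2 in each later one. Among the 19 members whose level spanned 2-fold or more over the libraries and reached 5 FPKM, 7 were highest in the quiescent library (36.8%, where 15.2% of 5366 such genes were). Day 4 held the highest value of 3 of them (15.8%, against 2.24% of all such genes), days 3, 7 and 10 of 2 each, and days 1, 2 and 5 of 1 each, with 28.8% of all such genes highest at day 1. The heat map of expressed members shows these levels in every library.

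**Figure D2:**
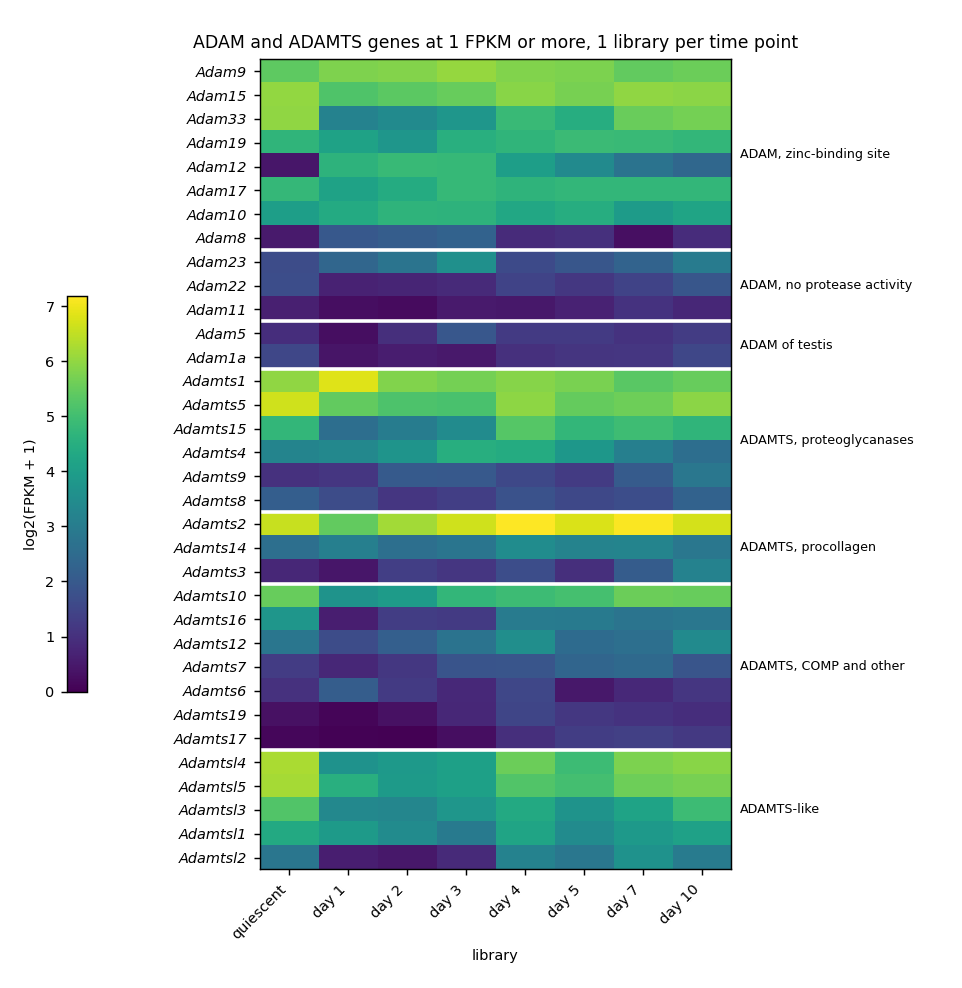
Level of each of the 34 expressed ADAM, ADAMTS and ADAMTS-like genes (rows) in the 8 libraries (columns), as log2(FPKM + 1). Lower levels are darker. The 5 ADAMTS-like genes and Adam33 are darker at days 1 to 3 than in the quiescent library. Adam12 is at 0.346 FPKM in the quiescent library and 27.6 FPKM at day 2.

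Among the membrane-anchored ADAM genes, 5 broadly expressed proteases stayed within 2-fold of the quiescent library at all 7 days. They include Adam10, which sheds Notch receptors and cadherins, and Adam17, which releases tumour necrosis factor and ligands of the epidermal growth factor receptor. Adam10 was 15.2 FPKM in the quiescent library and between 14.2 (day 7) and 24.5 (day 2) after injury. Adam17 was 26.3 FPKM at rest and between 16.6 (day 1) and 26.8 (day 3). Adam9, a widely expressed sheddase, ran from 41.2 FPKM in the quiescent library to 65.5 at day 3. Adam15, which has an integrin-binding motif in human, ran from 35.6 at day 1 to 63.1 in the quiescent library, and Adam19, also called meltrin beta, from 12.6 at day 2 to 28.5 at day 5. The signs of the small differences depend on scaling: at day 1, Adam9 and Adam10 were above the quiescent level as deposited and differed from it by -0.12 and -0.13 after rescaling to a common sum. After that rescaling, Adam15, Adam17 and Adam19 passed the 2-fold limit for lower at day 1, and Adam15 and Adam19 at day 2 (-1.24 and -1.51). Adam19 also passed it at day 2 under median-ratio scaling (-1.04).

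Adam12, also called meltrin alpha and known from regenerating muscle and developing mesenchyme, had the largest increase of any member. It was 0.346 FPKM in the quiescent library and 23.7, 27.6, 27.1, 15.2, 9.84, 5.71 and 4.24 FPKM at days 1, 2, 3, 4, 5, 7 and 10. Every injured library lay above the quiescent one, with a plateau over days 1 to 3 and lower values at each later day. The ratio to the quiescent library was 68.4 at day 1 and 79.6 at day 2. The log2 ratio at day 2 was 6.32, with a 95% interval from counting error of 5.91 to 6.72, because the quiescent value rests on about 49 fragments. At day 10 Adam12 was under 5 FPKM and was not compared with the quiescent library, and it was 6.4-fold lower than at day 3. The gene lies at chr7:133883199-134225097 on the minus strand (mm10).

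Adam33, an ADAM of mesenchymal cells known in human for its genetic association with asthma, went the other way. Its values were 62.3 FPKM at rest and 7.99, 9.88, 12.7, 28.4, 21.3, 45.2 and 50.6 FPKM at days 1 to 10 in the same order. The first 3 days after injury were the lowest and day 5 lay below day 4. It fell 7.8-fold at day 1 (log2 ratio -2.96, counting interval -3.12 to -2.80) and was lower again at days 2 to 5; at days 4 and 5 it was 2.2-fold and 2.93-fold lower. Days 7 and 10 were within 2-fold. The gene lies at chr2:131050817-131063814 on the minus strand.

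Adam23 and Adam8 were highest at day 3. Adam23, which lacks a working protease site and binds LGI proteins in the nervous system, was 2.21 FPKM at rest and 4.18, 5.79, 11.2, 2.03, 2.77, 3.90 and 6.94 FPKM from day 1 to day 10. It was 5.07-fold higher at day 3 (log2 ratio 2.34, counting interval 2.14 to 2.54), 5.5-fold lower at day 4 than at day 3, and 3.15-fold higher than quiescent at day 10. Adam8, a sheddase of leukocytes, did not reach 5 FPKM: it was 0.419 FPKM at rest, 2.95, 3.32 and 3.82 at days 1, 2 and 3, and at most 1.01 later. Macrophage markers had their highest sum in the same day 3 library, with 9 of the 10 compared higher than quiescent, and all 14 markers expressed. Their part in the values of Adam23 and Adam8 was not tested.

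**Figure D3:**
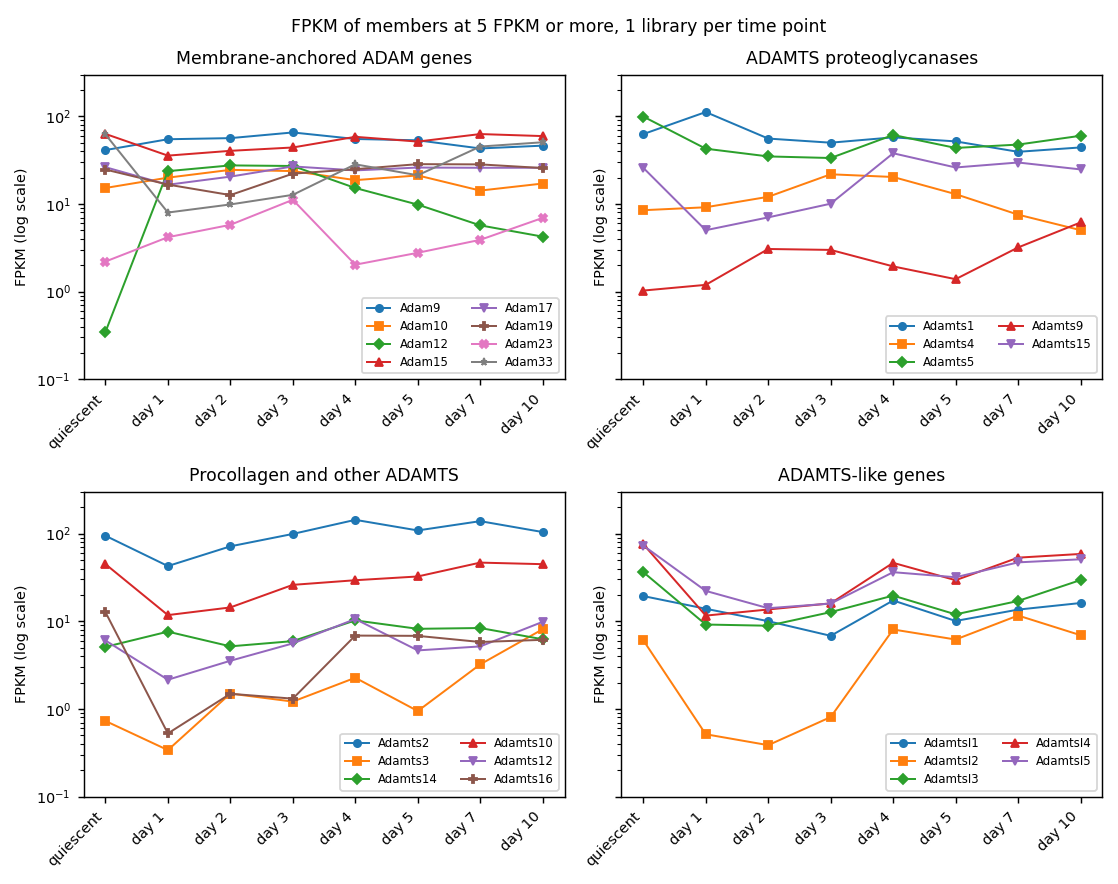
FPKM on a log scale (vertical axis) of the 24 members at 5 FPKM or more in the 8 libraries (horizontal axis), in 4 panels by role; each point is 1 library. Adam12 climbs from 0.346 to 23.7 FPKM between the quiescent library and day 1, and Adamts16 and Adamtsl2 drop to 0.525 and 0.514 FPKM.

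The proteoglycan-cleaving ADAMTS genes changed in opposite directions, and their mix shifted. Adamts5, the main aggrecanase of mouse cartilage, was 99.4 FPKM at rest and 42.8, 34.9, 33.5, 61.3, 43.6, 47.6 and 60.0 FPKM at days 1, 2, 3, 4, 5, 7 and 10. The quiescent library was the highest of the 8. Adamts5 was called lower at days 1, 2, 3, 5 and 7, with its lowest value at day 3 (2.97-fold lower, log2 ratio -1.57, counting interval -1.62 to -1.52).

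Adamts1, a protease of versican and aggrecan, was 62.7 FPKM at rest and 112, 55.8, 50.1, 57.6, 51.8, 39.4 and 44.2 FPKM in the later libraries. Day 1 stood above all others, at 1.78 times the quiescent level (log2 ratio 0.84, counting interval 0.79 to 0.89), which is within 2-fold. It was still above the quiescent level after rescaling to a common sum, by 0.30. Adamts1 and Adamts5 are neighbours on chromosome 16 (85793828 to 85803115 and 85858157 to 85901125, both on the minus strand, mm10), 55 kb apart.

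Adamts4, the other classical aggrecanase, was 8.49 FPKM at rest and 9.18, 12.1, 21.8, 20.3, 13.0, 7.56 and 5.03 FPKM afterwards. It was higher than quiescent at days 3 and 4 only (2.57-fold and 2.39-fold), and was 4.34-fold lower at day 10 than at day 3. After rescaling to a common sum its day 3 difference was 0.86, under the 2-fold limit. The macrophage markers named above were also highest at day 3, and their part in the Adamts4 value was not tested.

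Adamts15, which cuts versican and aggrecan, was 25.9 FPKM at rest and 5.02, 7.03, 10.1, 37.9, 26.1, 29.7 and 24.8 FPKM after injury. It fell 5.15-fold at day 1, and the step from day 3 to day 4 was a 3.76-fold rise to the highest value of the series. Adamts9, a versican protease, was 1.03 FPKM at rest and 1.19, 3.07, 2.99, 1.94, 1.39, 3.19 and 6.16 FPKM later, so that day 10 was the only library at 5 FPKM or more (5.99-fold higher than quiescent, log2 ratio 2.58, counting interval 2.34 to 2.82). Adamts8, 20.1 kb from Adamts15 on chromosome 9, stayed at or below 3.75 FPKM, and Adamts20 was under 1 FPKM throughout.

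As a share of the summed FPKM of the 7 genes, Adamts5 held 49.4% at rest and 24.8% and 41.6% at days 1 and 10. Adamts1 held 31.2%, 65% and 30.6% of the sum in those 3 libraries. Adamts4 held 4.22% at rest, 18.2% at day 3 and 3.48% at day 10. Of their substrates, versican (Vcan) was 41.9 FPKM at rest, 86.4 at day 2 and 91.4 at day 3, and was called higher at both days; aggrecan (Acan), brevican (Bcan) and neurocan (Ncan) were under 1 FPKM in every library.

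**Figure D4:**
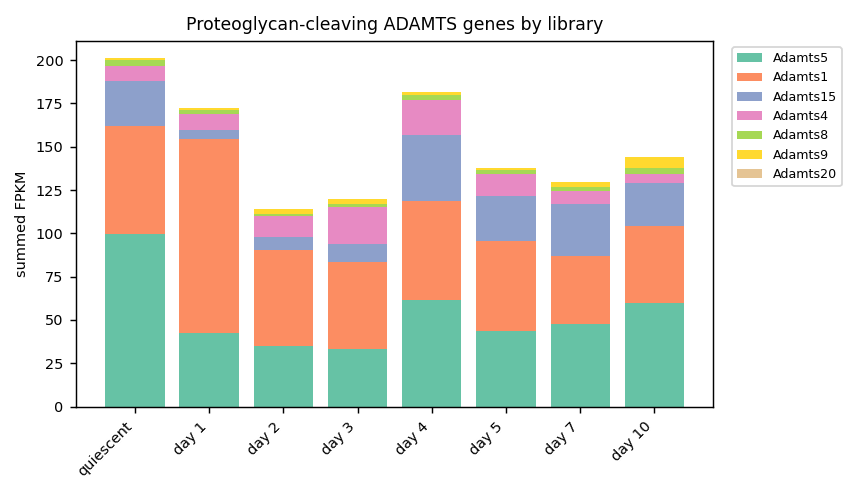
Stacked FPKM (vertical axis, from 0) of the 7 proteoglycan-cleaving ADAMTS genes in each library. Adamts1 makes up 65% of the day 1 bar, and Adamts5 49.4% of the quiescent one.

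Adamts2 made up most of the mRNA of the procollagen N-proteinases, the enzymes that trim fibrillar procollagens before fibrils form. It was 94.7 FPKM at rest and 42.7, 71.6, 99.3, 144, 109, 139 and 104 FPKM from day 1 to day 10. Day 1 was the lowest library (2.22-fold lower) and day 4 the highest; no later day was called. Its share of the summed FPKM of Adamts2, Adamts3 and Adamts14 lay between 84.3% at day 1 and 94.2% at rest. Adamts14 lay between 5.10 FPKM at rest and 10.2 FPKM at day 4 and was called on no day, although the plain ratio at day 4 was 2.01. Adamts3, which also takes part in the activation of vascular endothelial growth factor C, was 0.729 FPKM at rest and 0.339, 1.5, 1.21, 2.27, 0.946, 3.22 and 8.12 FPKM later. It was 11.1-fold higher at day 10 than at rest (log2 ratio 3.48, counting interval 3.07 to 3.88).

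The procollagens, the substrates of these enzymes, were lowest at day 1 and several were higher later. Of 8 genes of the procollagen list compared at day 1, 0 were higher and 4 lower, beside 22.4% and 12.5% of all genes. The 4 were the procollagens Col1a2 and Col5a1, and Bmp1 and Pcolce2, which process procollagen or enhance its processing. At day 4, 4 procollagens were higher (Col1a1, Col1a2, Col3a1 and Col5a2) and 1 gene, Pcolce2, was lower, beside 4.54% and 2.15% of all genes. Col1a1 was 1174 FPKM at rest, 628 at day 1 and 4894 at day 4. Adamts2 was 1.52 times its quiescent level at day 4, within 2-fold.

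Tendon and pericyte markers were high in the day 10 library in which Adamts3, Adamts9 and Adam23 were called. All 7 tendon markers were higher than quiescent at days 7 and 10, and their summed FPKM was 185 at rest, 1720 at day 7 and 2395 at day 10. Pericyte and smooth muscle markers summed to 119 FPKM at rest and 229 at day 10, where 3 of 8 were higher. Their part in the 3 members' values was not tested.

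Of the ADAMTS genes that act on COMP or microfibrils or have other substrates, 3 of 3 compared were lower at day 1 (Adamts10, Adamts12 and Adamts16), beside 12.5% of all genes. Adamts10, which binds fibrillin, was 44.9 FPKM at rest and 11.8, 14.4, 26.0, 29.4, 32.5, 46.7 and 44.8 FPKM afterwards. The values climbed from day 1 to day 7. It was 3.82-fold lower at day 1 and lower again at day 2, and was within 2-fold from day 3. Adamts12, a protease of COMP, was 6.05 FPKM at rest, 2.15 at day 1 (2.81-fold lower) and 10.6 at day 4.

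Adamts16 had the largest fall of any member. It was 12.7 FPKM at rest and 0.525, 1.49, 1.31, 6.87, 6.82, 5.81 and 6.15 FPKM later. The 3 early libraries were far below the rest, and the 4 later ones lay between 5.81 and 6.87 FPKM. The ratio at day 1 was 24.2-fold lower (log2 ratio -4.60, counting interval -5.08 to -4.12). The gene lies at chr13:70727808-70841810 on the minus strand. The calls at day 4 and after lie near the limit: day 7 was called lower with a log2 ratio of -1.13 and a counting interval of -1.30 to -0.96, and day 10, at a plain ratio of 2.07-fold lower (log2 ratio -1.05, counting interval -1.18 to -0.92), was not called. Adamts6 (highest 3.36 FPKM, day 1), Adamts7 (4.52, day 7) and Adamts17 (1.55, day 7) were below 5 FPKM. Of their partners, 7 of the 9 compared were lower at day 1 (12.5% of all genes): Ltbp4, a binding protein of latent TGF-beta, was 505 FPKM at rest and 88.3 at day 1, Comp was 31.2 and 6.10, and Ltbp2 was higher, at 2.12 and 12.9 FPKM.

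The 5 ADAMTS-like genes fell together. Their summed FPKM was 211 at rest and 57.4, 47.1, 52.3, 128, 89.5, 143 and 162 at days 1, 2, 3, 4, 5, 7 and 10, with the 3 early libraries lowest. At day 3 all 5 were called lower (8.28% of all genes compared), and 4 of 5 at day 1 (12.5%) and at day 2 (10.9%). Adamtsl4, a fibrillin-binding protein whose loss in human displaces the lens, was 75.9 FPKM at rest and 11.6, 13.6, 16.0, 46.5, 29.4, 53.2 and 58.7 FPKM afterwards. It fell 6.54-fold at day 1 (log2 ratio -2.71, counting interval -2.83 to -2.59). Adamtsl5, which also binds fibrillin, was 73.1 FPKM at rest and 22.2, 14.1, 15.9, 36.3, 31.8, 47.0 and 51.0 FPKM. It was lowest at day 2 (5.18-fold lower).

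Adamtsl2, mutated in human geleophysic dysplasia and a partner of latent TGF-beta binding protein 1, was 6.08 FPKM at rest and 0.514, 0.386, 0.808, 8.07, 6.19, 11.6 and 6.94 FPKM. Its 3 early libraries lay under 1 FPKM and all others at 6.08 FPKM or more. The day 2 value was 15.7-fold lower (log2 ratio -3.98, counting interval -4.74 to -3.22), and day 4 was 9.98-fold above day 3. Adamtsl3, also called punctin-2, was 36.4 FPKM at rest, 9.19, 8.90 and 12.7 at days 1, 2 and 3, and 29.5 at day 10. Adamtsl1, or punctin, was 19.4 FPKM at rest and lowest at day 3, at 6.83 FPKM, the only day on which it was called.

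The promoters of the 4 ADAMTS-like genes found in the sequence table are shown because these genes fell together, with that of Adamts1, which peaked at day 1. Each is the 250 bases before the RefSeq start, 5′ to 3′ on the gene's own strand (RefSeq sequences, build GRCm38.p6), at chr2:27079129-27079378 (+) for Adamtsl2, chr7:82335444-82335693 (+) for Adamtsl3, chr3:95687918-95688167 (-) for Adamtsl4, chr10:80348449-80348698 (-) for Adamtsl5 and chr16:85803114-85803363 (-) for Adamts1. Capitals mark matches on either strand to the GC box, whose letters are GGGCGG, and to the TATA box, which was searched for on both strands with the letters TATAAA.
Adamtsl2: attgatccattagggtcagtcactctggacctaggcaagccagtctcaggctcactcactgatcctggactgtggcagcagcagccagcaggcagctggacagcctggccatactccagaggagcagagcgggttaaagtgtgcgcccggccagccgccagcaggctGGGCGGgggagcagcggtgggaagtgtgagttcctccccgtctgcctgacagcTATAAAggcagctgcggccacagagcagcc
Adamtsl3: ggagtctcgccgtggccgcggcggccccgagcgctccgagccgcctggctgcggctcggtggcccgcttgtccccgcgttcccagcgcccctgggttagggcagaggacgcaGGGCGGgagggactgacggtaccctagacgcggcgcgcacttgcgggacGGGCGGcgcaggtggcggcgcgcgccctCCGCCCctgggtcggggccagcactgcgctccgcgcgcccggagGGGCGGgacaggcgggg
Adamtsl4: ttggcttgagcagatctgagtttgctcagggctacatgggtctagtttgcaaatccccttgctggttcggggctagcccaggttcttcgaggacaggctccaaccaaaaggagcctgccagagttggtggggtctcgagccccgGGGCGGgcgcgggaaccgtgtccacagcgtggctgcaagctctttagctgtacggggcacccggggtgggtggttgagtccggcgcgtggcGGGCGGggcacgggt
Adamtsl5: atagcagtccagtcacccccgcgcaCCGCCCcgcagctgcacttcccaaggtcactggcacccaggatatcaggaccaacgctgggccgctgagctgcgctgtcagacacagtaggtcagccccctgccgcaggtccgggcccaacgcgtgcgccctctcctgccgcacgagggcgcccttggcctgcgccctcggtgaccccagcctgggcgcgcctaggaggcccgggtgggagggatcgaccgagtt
Adamts1: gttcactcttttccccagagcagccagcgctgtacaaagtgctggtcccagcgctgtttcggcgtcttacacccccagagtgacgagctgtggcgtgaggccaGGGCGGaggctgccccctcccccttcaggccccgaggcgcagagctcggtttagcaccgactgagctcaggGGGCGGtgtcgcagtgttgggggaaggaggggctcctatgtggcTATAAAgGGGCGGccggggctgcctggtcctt
All 5 windows hold at least 1 GC box, which is found in 33% of 32536 promoter windows of that length and in 15 of the 33 windows of members. The window of Adamtsl3 holds 4, those of Adamts1 and Adamtsl4 hold 3 and 2, and Adamtsl2 and Adamtsl5 hold 1 each. A TATA box lies between 32 and 25 bases before the start in Adamts1 and Adamtsl2, and 12.3% of all windows hold one. The letters of the AP-1 site (TGANTCA, in 6.73% of windows), the CCAAT box (33.8%), the E-box CACGTG (6.04%) and the TEAD site GGAATG (12.6%) are in none of the 5. Of the members, 31 of 57 had a window in the table, and 19 of the 34 expressed ones. A match is a run of letters and not a shown binding site.

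Several members that were low at day 3 were higher at day 4. Compared with day 3, 7 of 22 members were higher at day 4 (3.46% of all genes) and 1 of 22 lower (4.81%): Adam33, Adamts15, Adamts16, Adamtsl1, Adamtsl2, Adamtsl4 and Adamtsl5 rose and Adam23 fell. Day 4 lay above both day 3 and day 5 in 15 of the 24 members at 5 FPKM or more, where 26.1% of 9477 genes did so. By day 10, 9 of 24 members were higher than at day 3 (6.54%) and 2 of 24 lower (10.7%), Adam12 and Adamts4. Pairs of days that share the day 3 library are not independent of each other.

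**Figure D5:**
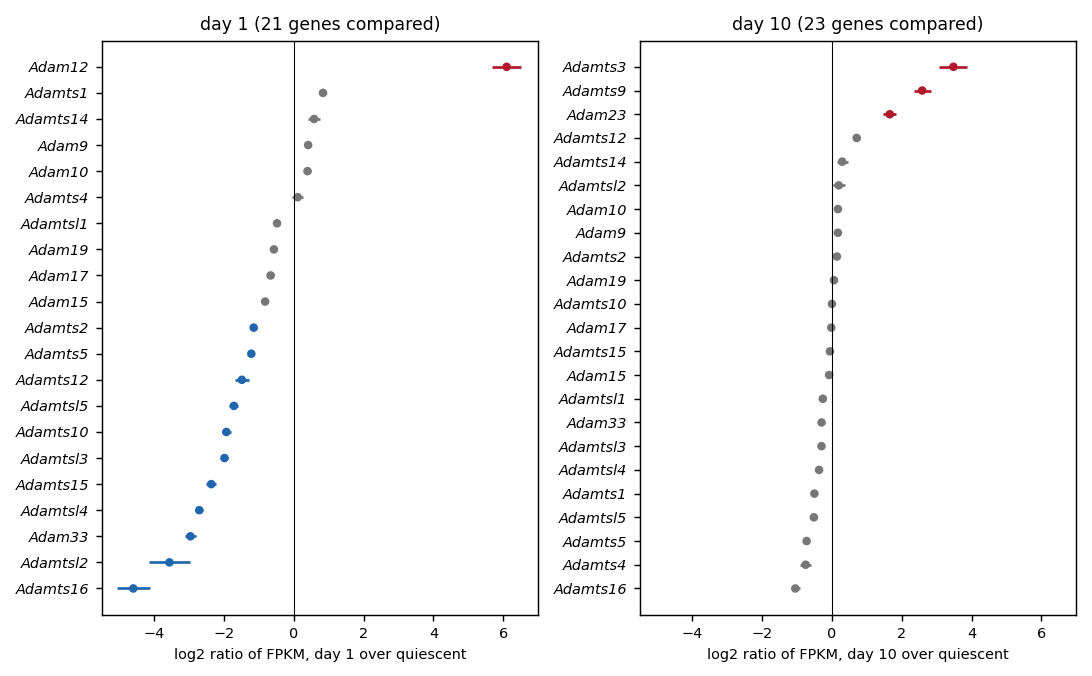
Log2 ratio of FPKM over the quiescent library (horizontal axis) for the members compared at day 1 (left, 21 genes) and day 10 (right, 23 genes), with 95% intervals from counting error alone as bars. At day 1, 11 members are marked lower (blue) and 1 higher (red, Adam12), and at day 10 only 3 are marked, all higher.

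Markers of pericytes, Schwann cells and tendon cells were also lower in the early libraries. At day 1, 7 of 8 pericyte and smooth muscle markers were lower than quiescent, with a summed FPKM of 18.4 against 119 at rest, 73.1 at day 2, 115 at day 3 and 92.9 at day 4. Acta2 alone was 22.5 FPKM at rest, 58.7 at day 2 and 83.1 at day 3, and 5 of the 8 markers were still lower than quiescent at day 3. The pericyte gene Rgs5 was 35.3 FPKM at rest and 0.981 at day 1. Of the Schwann cell markers 5 of 5 compared were lower at day 1, with sums of 401 at rest, 120 at day 1 and 242 at day 4. Of the tendon markers, 3 of 4 compared were lower at each of days 1, 2 and 3. At day 4, 4 of 4 compared were higher than at day 3. The tendon sum itself was 185 at rest and 180 at day 1, with Thbs4 alone at 89.8 and 166 FPKM. Macrophage markers fell from 914 at day 3 to 149 at day 4. The part of these cells in the fall and return of the ADAM and ADAMTS genes was not tested.

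A further 10 members reached 1 FPKM in some library but 5 FPKM in none. Besides Adam8, Adamts6, Adamts7, Adamts8 and Adamts17 they are Adam22 (2.81 FPKM at day 10) and Adam11 (1.08 at day 7), both without protease activity, Adam5 (2.88 at day 3), Adam1a (1.91 at day 10) and Adamts19 (1.82 at day 4). Adam1a and Adam5 belong to the testis group of ADAM genes, and Adam1a overlaps Tmem116 on the other strand. Adam17 overlaps Iah1, Adamts9 overlaps A730049H05Rik, and Adam15 and Adamts2 overlap antisense transcripts in the same way. Whether the authors counted by strand is not stated in the labels or notes, so reads of such pairs may not be separated. The lowest member inside the 1 FPKM limit is Adam11 at 1.08, and the highest outside it is Adam1b at 0.442. The 23 members under 1 FPKM in all libraries, taken as not expressed, are Adam18, Adam1b, Adam2, Adam20, Adam21, Adam24, Adam25, Adam26a, Adam26b, Adam28, Adam29, Adam3, Adam30, Adam32, Adam34, Adam39, Adam4, Adam6a, Adam6b, Adam7, Adamts13, Adamts18 and Adamts20. Of these, 14 stood at the floor of the table (0.001) in every library.

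Inhibitors of the family also changed. Timp1, a tissue inhibitor of metalloproteinases, rose from 15.9 FPKM at rest to 1581 at day 1 and was called higher on all 7 days, with 172 FPKM at day 10. Timp3, which inhibits ADAM17 and the aggrecanases, was 236 FPKM at rest and 55.6, 18.0, 20.1, 113, 57.2, 114 and 178 FPKM later. Timp2 and Reck, a membrane-bound inhibitor of ADAM10, were lower at days 1 to 3 too. Timp2 was 1164 FPKM at rest and 172 at day 2, and Reck 30.8 and 6.51. Of 4 inhibitors compared, 1 was higher and 3 were lower at each of days 1, 2, 3 and 5. Of all genes, 12.5%, 10.9%, 8.28% and 4.63% were lower on those days, and 22.4%, 23.7%, 15.6% and 8.39% were higher.

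Of the genes for maturation and trafficking of the sheddases, 0 of 9 compared were higher at day 1 and 3 were lower, beside 22.4% and 12.5% of all genes. Pcsk6, a proprotein convertase, was 231 FPKM at rest and 28.1 at day 1, while Furin, another convertase, was 23.7 and 36.0 FPKM and within 2-fold. Of sheddase substrates, 8 of 18 compared were higher at day 1 and 3 were lower, beside the same 22.4% and 12.5%. Cd44, the hyaluronan receptor, was 10.5 FPKM at rest and 124 at day 1, and the growth factor precursor Ereg was 0.433 and 5.48. Among those that were lower were Notch3 (7.26 and 0.873 FPKM) and Jag1 (25.3 and 9.52 FPKM). Notch3 is also on the list of pericyte and smooth muscle markers.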

How the data were processed

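Polyadenylated RNA of 8 sorted samples, 1 per time point, was sequenced from stranded TruSeq libraries, per the labels' protocols. The authors deposited FPKM values for 23846 rows, and bcl2fastq, TopHat2, Bowtie2 and Cufflinks with mm10 were used, per the submitters' processing notes, which give no versions or roles. Annotation, filters, strand setting and pooling of mice: not given in the sources used here. A value of 0.001 is the floor of the deposited table, and for a repeated symbol the row with the highest FPKM was used (0 members are repeated). FPKM depends on the total of mapped fragments, so abundant genes that change move all others.

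Differences were taken on log2(FPKM + 1). A gene was compared with 5 FPKM or more in the higher library and called at a difference of 1, and the same rule over all genes gave the background percentages. Ratios in the text are plain ratios of FPKM. Depth was estimated from the steps of low FPKM values in genes with transcripts of 1500 bp or more. It was the depth at which these values fell closest to whole numbers of fragments. At that depth 74.7% to 78.9% of them lay within 0.15 of a whole number. A depth not chosen for its fit would give 30% by chance, so that figure is not the chance level of this share. The 95% intervals take fragments as this depth times FPKM and the longest GENCODE M21 coding transcript less 150 bp. They cover counting error only, not differences between animals, sorts or libraries, and 68 of the 70 calls lay wholly beyond 2-fold in them. The steps were tested on simulated data. Loci are the deposited ones with the start raised by 1, on mm10.

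All members at 5 FPKM or more are named with values or ranges; pathway genes and cell type markers come from lists, from which some were named after their values were seen. The members and lists were chosen with earlier results of these data known. Alternatives were pseudocount, filter, scaling, repeated symbols and day 10 as reference. Python 3.11.15, pandas 2.3.3, numpy 2.4.6 and matplotlib 3.10.9 were used.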

Additional observations from a re-analysis of the deposited data

How the results depend on the processing

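Each time point is 1 library, so the main limit is that no difference can be set against the spread between animals, sorts or preparations. No paired analysis was possible because each time point is 1 library, and leaving out a library leaves its time point without a value. The 8 members called lower on all of days 1 to 3 (Adam33, Adamts5, Adamts15, Adamts16 and Adamtsl2 to Adamtsl5) were also called on those days under both other scalings. Of the 24 members at 5 FPKM or more, the largest difference from quiescent moved by more than its counting error in 18 after rescaling to a common sum, 7 under median-ratio scaling, 8 with a pseudocount of 0.1 and 0 with summed rows, and reversed in none. Each value below was computed with only its named setting changed.

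With a limit of 1 FPKM, and with no filter on low values, the same counts resulted: 3, 4, 5, 3, 5 and 5 members higher at days 1, 2, 3, 5, 7 and 10, 2 lower at day 4 than at day 3, and 2, 4, 4 and 5 highest at days 1, 3, 7 and 10. After rescaling to a common sum the median differences were -0.91, -0.98, -0.45, 0.01, -0.33 and -0.22 at days 1, 2, 3, 4, 5 and 7, with 1 member higher and 14 lower at day 2 and 3 lower at day 4. Members highest at days 2, 5, 7 and 10 then numbered 0, 0, 1 and 4. No share of all genes stands beside these counts. Median-ratio scaling gave medians of -0.03 at day 5 and 0.03 at day 10, 1 member higher at day 2, 2 lower at day 4, 1 lower at day 10 and 1 highest at day 3. A pseudocount of 0.1 gave medians of -0.91 and -0.67 at days 1 and 2, 2 members lower at day 4 and 1 at day 10. Over members at 5 FPKM or more the medians were -0.72, -0.63, -0.03, -0.001 and -0.01 at days 1, 2, 4, 5 and 10. With day 10 in place of quiescent as the reference, which was chosen after seeing the data, the medians were -0.91, -0.75, -0.57, -0.03, -0.12 and -0.13 at days 1, 2, 3, 4, 5 and 7, with 2, 2 and 0 members higher at days 1, 5 and 7, and 3 and 1 lower at days 4 and 7.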

Other observations

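Small leucine-rich proteoglycans and microfibril genes, which the ADAMTS and ADAMTS-like proteins meet in the matrix, differed among themselves in course. Fibromodulin (Fmod), which binds collagen fibrils and is also 1 of the 7 tendon markers, was 55.7 FPKM at rest, 6.07 at day 1 and 310 at day 10. Biglycan (Bgn) was 394 FPKM at rest and 2199 at day 5, and decorin (Dcn) 4577 at rest, 1502 at day 2 and 5005 at day 10. The fibrillin gene Fbn2 was 0.141 FPKM at rest and 5.02 at day 10, while Fbn1 was 402 FPKM at rest and 278 at day 10. Ltbp2 was highest at day 2, at 44.3 FPKM.

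The summed FPKM of other marker lists changed as follows. Markers of dividing cells summed to 4.41 at rest, 334 at day 2 and 33.2 at day 10. Muscle fibre markers summed to between 10.2 (day 1) and 117 (day 7), with Myh1, Myh2 and Myh4 under 1 FPKM in every library, and satellite cell and myoblast markers to between 6.68 and 46.9. Endothelial markers summed to 17.3 at rest and 2.19 at day 1. Neutrophil markers summed to between 5.32 and 84.6, red cell markers to between 31.7 and 212, and lymphocyte markers to at most 1.83.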
